A study of Rattus norvegicus with 19 samples.

Results

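The 42 genes described here carry out fatty acid synthesis, the assembly of triglyceride and phospholipid, and the storage and traffic of lipid in rat liver. They were taken as a named list of genes that was chosen with earlier results of these data known. Every probe set annotated to exactly 1 of them was used. All 42 genes had such a probe set, among the 13811 genes measured in the series. The first of the array types used held 48 of their probe sets among 15923 in all, and the second held 20 among 15333. The study asked which hepatic genes other than those of drug metabolism respond to pregnenolone-16α-carbonitrile (PCN), a synthetic steroid and ligand of the pregnane X receptor in rodents. The PCN animals were adult rats fasted overnight, injected once into the peritoneum with PCN at 100 mg/kg, and killed 8 h later. The corn oil animals were fasted in the same way, received the vehicle alone by the same route, and were also killed at 8 h. Total liver RNA gave 5 PCN and 5 corn oil arrays of the first type and 5 PCN and 4 corn oil arrays of the second, with no array of corn oil replicate 2 in the second. The labels call the replicates biological, and strain, sex and age beyond adult are not given in the sources used here. The same replicate numbers appear on both array types, so the second type is not counted as a further set of animals.

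The liver makes fatty acids from cytosolic acetyl-CoA and esterifies them onto glycerol 3-phosphate. Acyltransferases, phosphatidate phosphatases (the lipins) and diacylglycerol acyltransferases then act in turn to yield triglyceride, while diacylglycerol is also the branch point to phosphatidylcholine. Fasting lowers the synthesis of fatty acids in liver and feeding raises it, largely through the transcription factors encoded by Srebf1 and Mlxipl.

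Expression is given as the deposited log2 value, and a probe set was called changed where limma's Benjamini-Hochberg adjusted p, over all probe sets tested on that array type, was under 0.05. Of the 68 probe sets of these genes, 60 were bright enough to be tested, and they covered 40 genes. The probe sets of Acacb (1369328_at), acetyl-CoA carboxylase beta, and Acsl3 (1368177_at), a long-chain acyl-CoA synthetase, lay below the filter and neither gene was tested. The other 6 untested probe sets belonged to Pnpla3, Mgll, Gpd2, Agpat1 and Agpat3, each of which had another probe set that was tested.

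Gpd1l1 and 1 of 2 Lpin2 probe sets were called higher after PCN, and Pctp and Agpat2 were called lower. All 4 genes belong to the glycerolipid steps. The calls of Gpd1l1 and Pctp held without any single array. Those of Agpat2 (adjusted p = 0.046) and Lpin2 (0.0423) lay near the threshold. They were lost without any 1 of 9 arrays for Agpat2 and any 1 of 7 for Lpin2, whose other probe set had a log2 fold change of -0.11. On the first array type 3 of 42 tested probe sets were called, against 3.25% of all probe sets tested there. Of the 3, 1 was higher and 2 were lower, where 2.31% of all tested were higher and 0.945% lower. On the second array type 2 of 18 were called, both higher, against 5.40% of all tested there, of which 3.76% were higher and 1.64% lower. The members' median log2 fold change was 0.02 for the first type and 0.03 for the second, beside 5.5e-05 and -0.03 over all tested probe sets. Positive values were held by 21 of 42 member probe sets in the first table and by 9 of 18 in the second. On the first type the groups did not overlap in 5 of the 42 probe sets, where 6.04% of all tested were so separated: 1 with PCN above, against 3.99% of all, and 4 with PCN below, against 2.05%. On the second type 2 of the 18 were separated, where 10.4% of all were, and both had PCN above, against 5.06% of all above and 5.32% below. No probe set of the fatty acid synthesis genes (14 on the first array type, 2 on the second) or of the droplet, lipolysis and traffic genes (10 and 5) was called by limma. At an unadjusted p under 0.05, 9 of 42 member probe sets passed on the first array type, against 17.7% of all tested there. On the second 5 of 18 passed, against 27.3%. By branch, first type and then second, these were 1 of 14 and 0 of 2 for fatty acid synthesis and 8 of 18 and 4 of 11 for the glycerolipid steps. For the droplet, lipolysis and traffic genes they were 0 of 10 and 1 of 5.

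**Figure D1:**
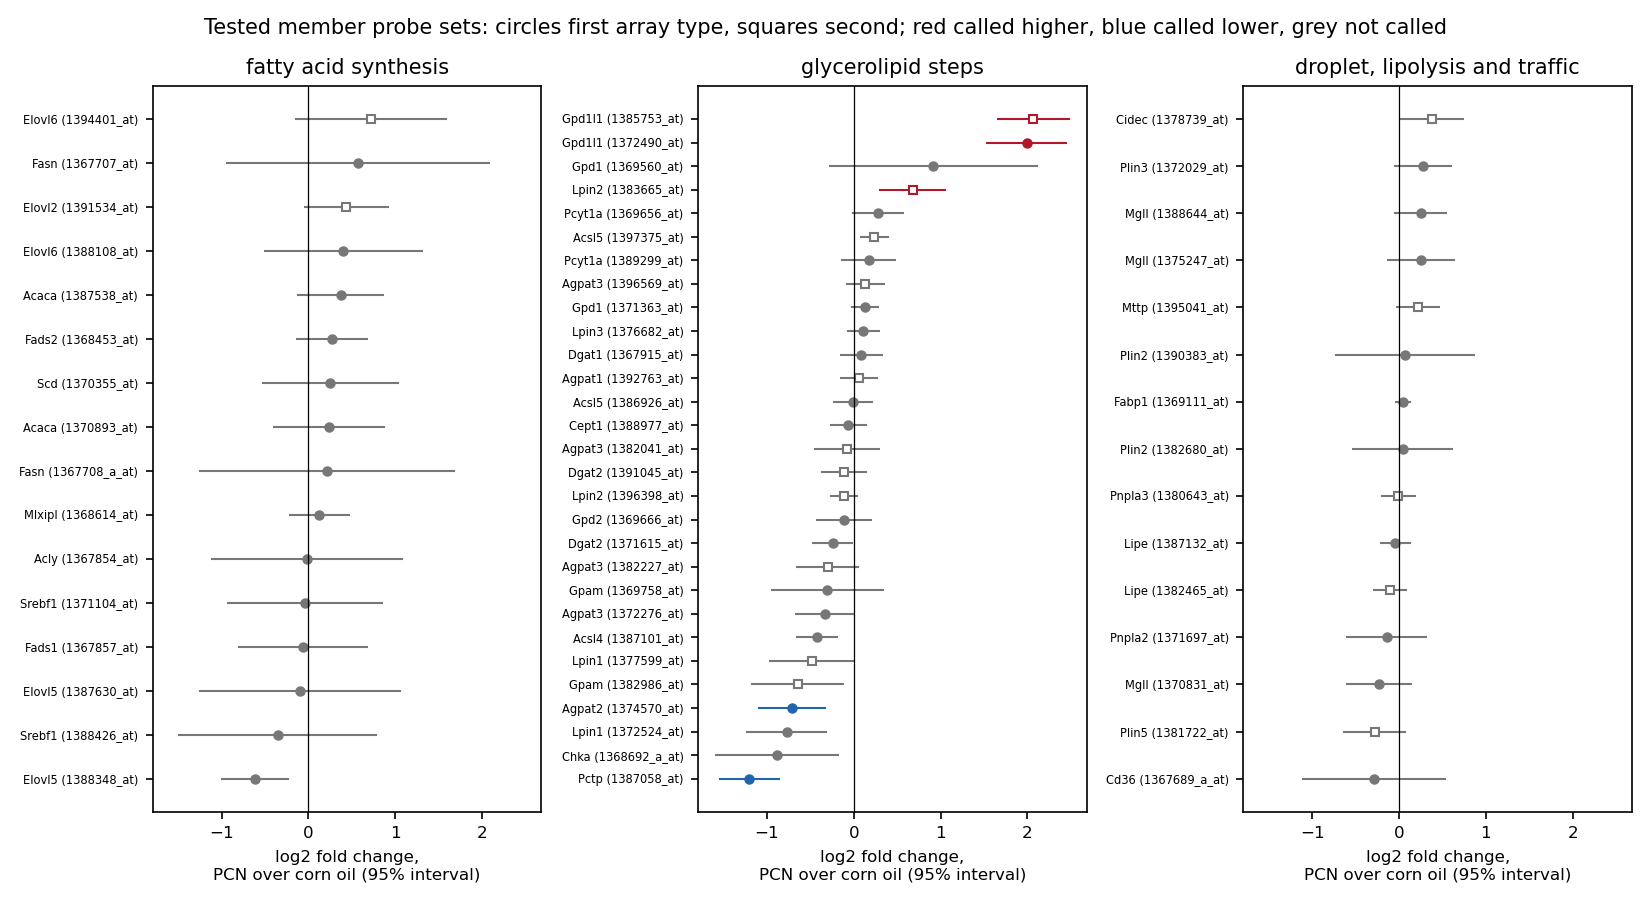
Log2 fold change of PCN over corn oil (x axis) with its 95% interval for each of the 60 tested probe sets, in 3 panels for fatty acid synthesis, glycerolipid steps and droplet, lipolysis and traffic genes; circles are the first array type, squares the second, red called higher, blue called lower and grey not called. The called probe sets all lie in the glycerolipid panel, with Gpd1l1 at 1.99 and 2.07 and Pctp at -1.20, while the intervals of Fasn and Srebf1 are among the wide ones.

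The labels were checked on 10 probe sets of 7 known pregnane X receptor target genes, and in all 10 the lowest PCN array exceeded the highest corn oil array. Of these, 8 were called higher, with Alas1, the first enzyme of haem synthesis, at a log2 fold change of 1.74 and Cyp3a18, a steroid-hydroxylating cytochrome P450, at 1.31. Most hepatocyte marker probe sets were among the brightest, with Alb at the 100th percentile of brightness. Fgb was at percentile 99.8 on 1370511_at, but at 31.6 on 1371234_at and at 3.55 on 1388266_at, which lay below the filter. Of the fat cell markers, Plin1 (5.09th percentile) and Fabp4 (10.9th) lay below the filter. Lep (percentile 32.4), Lpl (49.9), Cfd (76.9) and, on the second array type, Adipoq (37.2) passed it and were not called. Of 36 marker probe sets of all the cell types listed, tested on the first array type, none was called by limma, against 3.25% of all tested. At an unadjusted p under 0.05, 6 of the 36 passed, against 17.7% of all tested there. Of these, the red cell markers Hbb (log2 fold change -0.39) and Alas2 (-0.59) were lower. Fgb 1370511_at (0.29), Col1a1 1388116_at (0.41), Col3a1 (0.43) and the neutrophil marker S100a9 (0.58) were higher. On the second array type 1 of 12 was called, against 5.40% of all tested there. It was a probe set of the macrophage receptor Cd163 (log2 fold change 0.58, adjusted p = 0.0371), whose other probe set had 0.40 (adjusted p = 0.136). Whether these cells had a part in any result was not tested. Because the RNA came from whole liver, fewer cells of a type and less RNA per cell cannot be told apart for any gene below. The corn oil replicate 2 array of the first type stood apart: it was more than 1 log2 unit below every other array in 188 tested probe sets, against 0 to 14 for the others. These included 1 probe set of Gpd1 and 1 of Elovl5, and values without that array are given for both.

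Gpd1l1, which encodes a glycerol-3-phosphate dehydrogenase-like protein named Gpd1l in other annotations, had the largest change of the module on both array types. Its product belongs to the family that interconverts dihydroxyacetone phosphate and glycerol 3-phosphate, the backbone of glycerolipids. On the first array type (1372490_at) the log2 values were 10.94, 10.22, 10.63, 10.97 and 9.99 in PCN livers, against 8.93, 8.53, 8.52, 8.73 and 8.08 in corn oil livers. The lowest PCN array stood more than 1 log2 unit above the highest corn oil array. The mean was 10.55 ± 0.43 in PCN livers and 8.56 ± 0.32 in corn oil livers (SD, n = 5 each), a log2 fold change of 1.99 (SE 0.21) or 3.98-fold, with a limma adjusted p of 0.000564. This was the 8th largest rise among the 11106 probe sets tested. On the second array type a separate probe set (1385753_at) read 10.14, 9.46, 9.83, 10.01 and 9.19 in PCN livers, against 7.64, 7.38, 8.00 and 7.60 in corn oil livers. The groups were again fully apart, and in both tables replicate 5 was the lowest PCN array and replicate 2 the next lowest. The log2 fold change there was 2.07 (SE 0.19), or 4.20-fold, with an adjusted p of 0.000692, ranking 2nd among the 10693 tested for size of rise. With any single array left out, the log2 fold change stayed between 1.87 and 2.13 in the first table and between 1.97 and 2.20 in the second, and it was called each time.

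The sequence upstream of the start site is shown for Gpd1l1 and for Pctp, the 2 genes whose calls held under every alternative tried. The windows are the 250 bases before the annotated start, from RefSeq on the GRCr8 build, read 5′ to 3′ on the gene's own strand, with motif matches in capitals. Gpd1l1 lies on the minus strand (chr8:123498949-123499198), and the capitals mark a CCAAT box read on the opposite strand at position -189.
Gpd1l1: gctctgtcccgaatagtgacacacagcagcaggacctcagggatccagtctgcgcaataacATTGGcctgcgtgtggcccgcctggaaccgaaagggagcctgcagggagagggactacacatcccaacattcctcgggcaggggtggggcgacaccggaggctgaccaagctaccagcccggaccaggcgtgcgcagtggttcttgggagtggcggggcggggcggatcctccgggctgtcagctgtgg
Pctp has 2 annotated starts on the minus strand, an upstream one (chr10:75346980-75347229) with AGTTCA, a hexamer of nuclear receptor elements, at position -133, and a downstream one (chr10:75326433-75326682) with CCAAT at position -63.
Pctp upstream start: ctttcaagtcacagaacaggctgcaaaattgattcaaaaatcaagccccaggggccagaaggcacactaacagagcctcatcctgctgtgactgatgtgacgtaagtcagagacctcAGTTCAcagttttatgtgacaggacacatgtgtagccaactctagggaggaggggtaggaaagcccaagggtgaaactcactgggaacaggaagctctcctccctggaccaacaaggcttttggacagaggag
Pctp downstream start: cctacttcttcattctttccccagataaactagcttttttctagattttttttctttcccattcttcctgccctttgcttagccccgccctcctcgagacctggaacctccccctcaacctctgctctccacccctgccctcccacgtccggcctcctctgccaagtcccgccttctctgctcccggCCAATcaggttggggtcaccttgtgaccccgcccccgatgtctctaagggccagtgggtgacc
Both strands of 39 promoters of 34 members were searched for 5 motifs, and 33469 rat promoters of the same length were searched in the same way. CCAAT was found in 21 of the 39 member promoters and in 34% of all promoters, AGTTCA in 1 and 12.2%, and AGGTCA in 4 and 14.1%. The E-box CACGTG was found in 3 member promoters (Elovl5, Mgll and Plin2) and in 5.59% of all, and the sterol element core TCACNCCAC in 1 (Pcyt1a) and 0.974%. None of these letters was in the windows of Agpat2 or Lpin2. A match is a description of the letters only.

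Gpd1 and Gpd2, the classical cytosolic and mitochondrial glycerol-3-phosphate dehydrogenases, were not called. The Gpd1 probe set 1371363_at had 12.04, 12.02, 11.96, 12.11 and 12.00 in PCN livers, against 11.79, 11.98, 11.98, 11.89 and 11.88 in corn oil livers, a log2 fold change of 0.12 (SE 0.07, adjusted p = 0.383). The other Gpd1 probe set, 1369560_at, had 11.38, 10.94, 11.46, 11.36 and 11.30 in PCN livers, against 10.99, 7.72, 11.02, 11.10 and 11.03 in corn oil livers. The corn oil value of 7.72 belonged to replicate 2, the array that stood apart, and the remaining 9 arrays lay within 1 log2 unit of each other. With that array the log2 fold change was 0.92 (SE 0.55, adjusted p = 0.427), and without it the value was 0.25 (adjusted p = 0.217). For Gpd2 (1369666_at) the log2 fold change was -0.12 (adjusted p = 0.72).

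**Figure D2:**
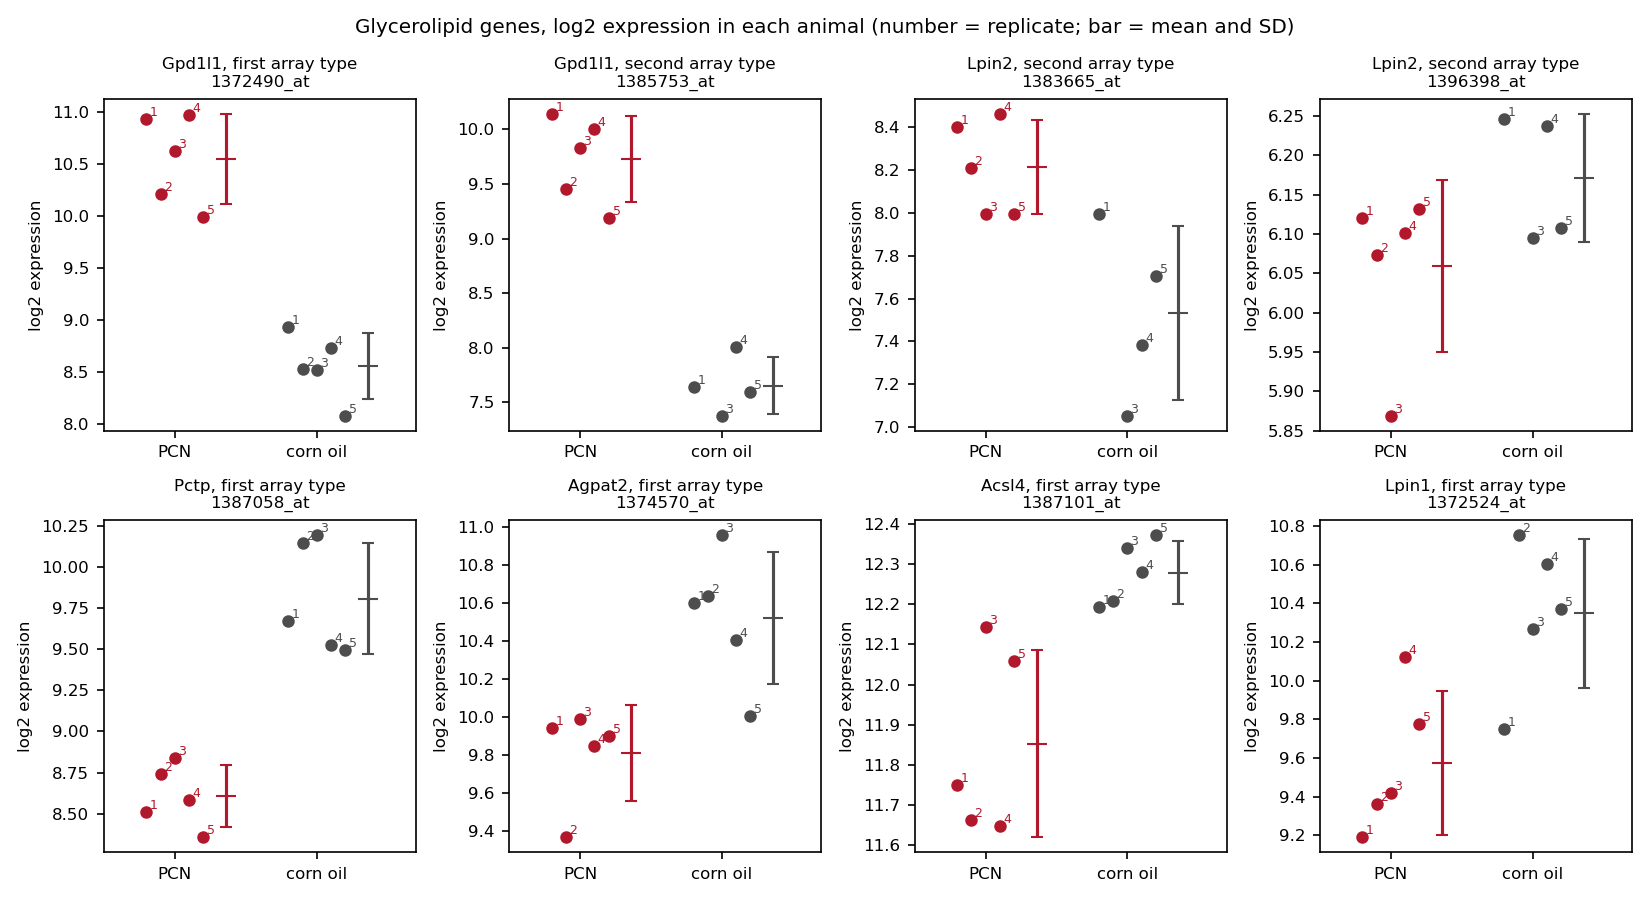
Log2 expression (y axis) in each PCN (red) and corn oil (grey) animal for 8 probe sets of glycerolipid genes, with the replicate number beside each point and the mean and SD beside each group. Both Gpd1l1 panels and the Pctp panel show groups that do not overlap, the Lpin2 probe set 1383665_at shows an overlap at 7.99, and the Agpat2 groups nearly touch at 9.99 and 10.01.

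Of the acyltransferases, which add fatty acyl chains to the glycerol backbone, Agpat2 fell. This lysophosphatidate acyltransferase (1374570_at) had 9.94, 9.37, 9.99, 9.85 and 9.90 in PCN livers, against 10.60, 10.64, 10.96, 10.40 and 10.01 in corn oil livers. All PCN arrays were below all corn oil arrays, narrowly so for corn oil replicate 5. The log2 fold change was -0.71 (SE 0.17, adjusted p = 0.046), that is 1.64-fold lower in PCN livers. This call was lost without any 1 of 9 of the 10 arrays, where the adjusted p reached 0.0966 (without PCN replicate 4), and it was kept without corn oil replicate 5 (0.0192). Gpam, the mitochondrial enzyme that adds the first acyl chain, had negative log2 fold changes on both array types and was not called. On the first (1369758_at) the values were 8.27, 7.89, 8.22, 7.82 and 7.87 in PCN livers, against 8.99, 7.05, 8.79, 8.45 and 8.31 in corn oil livers. On the second (1382986_at) they were 7.08, 6.75, 6.44, 6.09 and 5.72 in PCN livers, against 7.42, 7.28, 6.77 and 6.78 in corn oil livers. The log2 fold changes were -0.30 (adjusted p = 0.635) and -0.64 (SE 0.24, adjusted p = 0.119), and leaving out corn oil replicate 2 gave -0.62 on the first array type (adjusted p = 0.0464). Agpat1 was tested on the second array type alone, with a log2 fold change of 0.06. The 4 tested probe sets of Agpat3 ran from -0.34 to 0.13 and none was called.

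Of the lipins, which dephosphorylate phosphatidate to diacylglycerol, 1 probe set of Lpin2 was called and the other lipin probe sets were not; differences between the lipins were not tested. Lpin2 was measured on the second array type, where 1383665_at read 8.40, 8.21, 7.99, 8.46 and 7.99 in PCN livers, against 7.99, 7.05, 7.38 and 7.71 in corn oil livers. The highest corn oil array, replicate 1, reached the lowest PCN arrays, so the groups overlapped. The log2 fold change was 0.68 (SE 0.17, adjusted p = 0.0423), or 1.60-fold. Leaving out any 1 of 7 of the 9 arrays ended that call, with an adjusted p of up to 0.124 (without corn oil replicate 4). A second Lpin2 probe set, 1396398_at, had 6.12, 6.07, 5.87, 6.10 and 6.13 in PCN livers, against 6.25, 6.09, 6.24 and 6.11 in corn oil livers, with a log2 fold change of -0.11 (adjusted p = 0.307). The 2 probe sets of Lpin2 thus differed in sign. Lpin1, the best known member of the family in liver and a fasting-responsive gene, was not called on either array type. Its first-type probe set (1372524_at) had 9.19, 9.36, 9.42, 10.12 and 9.78 in PCN livers, against 9.75, 10.75, 10.27, 10.60 and 10.37 in corn oil livers, a log2 fold change of -0.77 (SE 0.21, adjusted p = 0.0662). Its second-type probe set (1377599_at) had 8.95, 9.29, 8.87, 9.70 and 9.16 in PCN livers, against 9.0, 9.62, 10.08 and 9.99 in corn oil livers, a log2 fold change of -0.48 (SE 0.22, adjusted p = 0.184). The groups overlapped on both. Lpin3 gave 0.11 on the same scale (adjusted p = 0.528).

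The diacylglycerol acyltransferases Dgat1 and Dgat2, which complete triglyceride, were not called. Dgat1 (1367915_at) had 9.67, 9.61, 9.88, 9.78 and 9.75 in PCN livers, against 9.53, 9.66, 9.97, 9.63 and 9.47 in corn oil livers, a log2 fold change of 0.09 with a 95% interval of -0.15 to 0.32 (adjusted p = 0.715). Dgat2 (1371615_at) had 12.88, 12.70, 13.07, 12.47 and 12.93 in PCN livers, against 13.14, 12.99, 13.13, 13.07 and 12.94 in corn oil livers, a log2 fold change of -0.24 (interval -0.47 to -0.02, adjusted p = 0.236). The groups overlapped for both genes. On the second array type the log2 fold change of Dgat2 (1391045_at) was -0.11 (adjusted p = 0.548).

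The acyl-CoA synthetases activate fatty acids for esterification or oxidation. Acsl4, which prefers arachidonate, had 11.75, 11.66, 12.14, 11.65 and 12.06 in PCN livers (1387101_at), against 12.19, 12.21, 12.34, 12.28 and 12.37 in corn oil livers. Every PCN array was below every corn oil array, yet the adjusted p was 0.052 for a log2 fold change of -0.43 (SE 0.11), so the gene was not called. The first-type log2 fold change of Acsl5 was -0.01 (adjusted p = 0.981). On the second (1397375_at) it had 7.00, 7.19, 6.98, 7.17 and 6.95 in PCN livers, against 6.76, 6.93, 6.84 and 6.75 in corn oil livers. There the groups did not overlap, though they nearly touched, and the log2 fold change was 0.24 (SE 0.07, adjusted p = 0.0753), a sign that turned to -0.04 when the arrays were centred on the 100 probe sets that both tables share.

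Among the genes of phosphatidylcholine synthesis and transfer, Pctp fell and the synthetic enzymes were not called. Pctp encodes the phosphatidylcholine transfer protein, a cytosolic carrier of phosphatidylcholine. It had 8.51, 8.74, 8.84, 8.58 and 8.36 in PCN livers (1387058_at), against 9.68, 10.15, 10.19, 9.53 and 9.50 in corn oil livers. Every PCN array was well below every corn oil array. The means were 8.61 ± 0.19 in PCN livers and 9.81 ± 0.34 in corn oil livers (SD, n = 5 each), a log2 fold change of -1.20 (SE 0.16), that is 2.30-fold lower in PCN livers with a limma adjusted p of 0.00231. It was the 10th largest decrease of the 11106 probe sets tested, and it kept its call without any single array, at -1.28 to -1.11. Chka, choline kinase alpha, which commits choline to the pathway, had 8.53, 8.96, 9.52, 8.48 and 8.32 in PCN livers (1368692_a_at), against 8.86, 9.47, 10.79, 9.78 and 9.34 in corn oil livers. The groups overlapped, and the log2 fold change of -0.89 (SE 0.32) had an adjusted p of 0.174. Pcyt1a, the rate-limiting enzyme of the CDP-choline pathway, had log2 fold changes of 0.28 (1369656_at, adjusted p = 0.296) and 0.17 (1389299_at, adjusted p = 0.567). The PCN arrays of 1369656_at read 8.02, 7.73, 7.96, 7.99 and 8.01, against 7.99, 7.20, 7.73, 7.83 and 7.55 in corn oil livers. Those of 1389299_at read 9.48, 9.23, 9.62, 9.40 and 9.50, against 9.36, 9.74, 9.09, 9.22 and 8.96 in corn oil livers, so that both probe sets overlapped between groups. For Cept1, the choline and ethanolamine phosphotransferase of the last step, the log2 fold change was -0.06 (adjusted p = 0.772).

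None of the genes of fatty acid synthesis was called, and most of them varied widely between animals of the same group. Fasn, fatty acid synthase, had 8.95, 7.57, 7.48, 11.23 and 8.06 in PCN livers (1367707_at), against 8.85, 9.54, 6.85, 7.60 and 7.56 in corn oil livers. PCN replicate 4 and corn oil replicate 3 differed 20.9-fold, and most arrays of either group lay within the range of the other. Its other probe set (1367708_a_at) had 9.92, 7.99, 8.68, 11.80 and 9.25 in PCN livers, against 9.97, 10.93, 8.18, 8.80 and 8.68 in corn oil livers, with the same highest array. The log2 fold changes were 0.58 (95% interval -0.93 to 2.09, adjusted p = 0.712) and 0.21 (-1.25 to 1.68, adjusted p = 0.896), intervals that span more than 2 log2 units. Acly, ATP citrate lyase, the source of cytosolic acetyl-CoA, had 10.81, 9.17, 10.11, 12.23 and 10.36 in PCN livers (1367854_at), against 11.06, 11.68, 9.89, 10.10 and 10.02 in corn oil livers, a log2 fold change of -0.01 (SE 0.50, adjusted p = 0.992). Acaca, acetyl-CoA carboxylase alpha, had 9.55, 9.05, 9.33, 10.65 and 9.48 in PCN livers (1370893_at), against 9.68, 10.05, 9.11, 9.20 and 8.84 in corn oil livers, a log2 fold change of 0.24 (adjusted p = 0.723). PCN replicate 4 was again the highest array for both genes. The other Acaca probe set (1387538_at) had 7.14, 6.98, 6.87, 7.91 and 6.96 in PCN livers, against 7.24, 6.11, 6.77, 7.03 and 6.86 in corn oil livers (log2 fold change 0.37, adjusted p = 0.432).

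PCN replicate 4 was also the highest array for Scd, Elovl6, Mlxipl and 1 of the 2 Srebf1 probe sets. Scd, stearoyl-CoA desaturase, had 8.93, 7.10, 8.96, 9.49 and 9.24 in PCN livers (1370355_at), against 8.59, 8.77, 8.40, 8.25 and 8.46 in corn oil livers. All PCN arrays but replicate 2 exceeded every corn oil array. The log2 fold change was 0.25 (SE 0.36, adjusted p = 0.757), and without PCN replicate 2 it was 0.66 (adjusted p = 0.031). Elovl6, which elongates palmitate, had 7.63, 7.36, 7.33, 9.53 and 7.45 in PCN livers (1388108_at), against 7.59, 8.34, 6.73, 7.01 and 7.62 in corn oil livers, a log2 fold change of 0.40 (adjusted p = 0.66). A separate Elovl6 probe set on the second array type (1394401_at) had 6.95, 5.99, 6.12, 8.30 and 6.29 in PCN livers, against 6.41, 5.47, 5.94 and 6.20 in corn oil livers (log2 fold change 0.72, adjusted p = 0.252). PCN replicate 4 was highest on both array types. Srebf1, whose protein drives the lipogenic genes in response to insulin, had 9.57, 8.11, 8.43, 10.35 and 9.30 in PCN livers (1371104_at), against 10.30, 9.04, 8.61, 9.13 and 8.88 in corn oil livers, and 9.87, 8.12, 8.80, 10.60 and 9.48 in PCN livers (1388426_at), against 10.89, 10.81, 8.73, 9.28 and 8.92 in corn oil livers. The log2 fold changes were -0.04 (adjusted p = 0.967) and -0.35 (adjusted p = 0.769), and the groups overlapped on both. Mlxipl, which encodes the glucose-responsive factor ChREBP, had 9.58, 9.43, 8.85, 9.64 and 9.24 in PCN livers (1368614_at), against 9.56, 9.25, 8.99, 9.20 and 9.12 in corn oil livers, a log2 fold change of 0.12 (adjusted p = 0.728). The polyunsaturated fatty acid desaturases Fads1 (-0.06, adjusted p = 0.939) and Fads2 (0.27, adjusted p = 0.483) and the elongase Elovl2 (0.44, adjusted p = 0.215) were not called.

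Measured over the 14 tested probe sets of the first array type, the fatty acid synthesis genes had a median within-group SD of 0.73, at percentile 98.75 of all tested probe sets, whose median SD was 0.17. Of the 14, 10 lay above the 95th percentile, and the number was 9 to 11 with any single array left out. The glycerolipid genes had a median SD of 0.25 (percentile 77.4) and the droplet, lipolysis and traffic genes 0.30 (percentile 87.2). On the second array type the branches were less distinct. The median SD there was 0.58 for the 2 fatty acid synthesis probe sets (percentile 99.3, 2 above the 95th). It was 0.29 for the 11 glycerolipid ones (percentile 95.3, 6 above) and 0.15 for the 5 droplet ones (percentile 67.2, 2 above). In the 14 fatty acid synthesis probe sets of the first array type, PCN replicate 4 was the highest of the 10 arrays in 9. PCN replicate 2 was the lowest in 7. The mean departures from each probe set's own mean were 0.13, -0.79, -0.23, 1.14 and -0.01 in PCN replicates 1 to 5, against 0.35, 0.31, -0.47, -0.23 and -0.19 in corn oil replicates 1 to 5. These values describe the animals, and what set them apart was not tested.

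**Figure D3:**
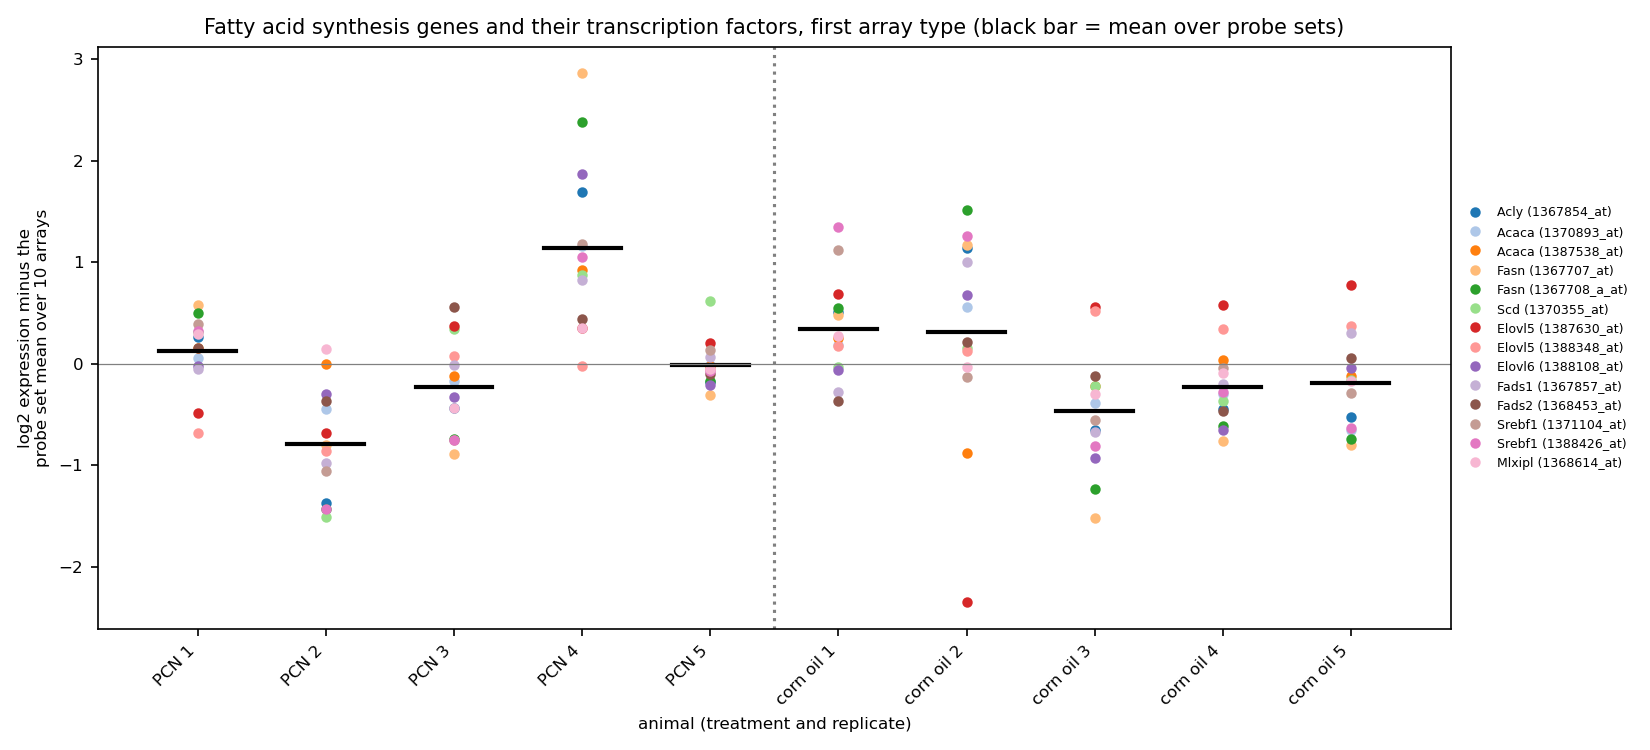
Log2 expression minus the probe set's mean over the 10 arrays of the first type (y axis) for 14 fatty acid synthesis probe sets (coloured points), by animal, PCN on the left and corn oil on the right; the black bar is the mean over the probe sets. The bar of PCN replicate 4 stands at 1.14 and that of PCN replicate 2 at -0.79, while the corn oil bars run between -0.47 and 0.35.

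Elovl5, which elongates polyunsaturated fatty acids, was the 1 gene of fatty acid synthesis with a probe set whose groups did not overlap. That probe set (1388348_at) had 11.56, 11.38, 12.31, 12.21 and 12.19 in PCN livers, against 12.41, 12.37, 12.76, 12.58 and 12.61 in corn oil livers. The log2 fold change was -0.61 (SE 0.18) with an adjusted p of 0.0824, above the threshold. Its other probe set (1387630_at) had 9.82, 9.62, 10.68, 10.66 and 10.51 in PCN livers, against 10.99, 7.95, 10.86, 10.88 and 11.08 in corn oil livers. There too all PCN arrays were below all corn oil arrays except replicate 2, which was the lowest of the 10. The log2 fold change was -0.10 (SE 0.53, adjusted p = 0.941) with that array and -0.70 (adjusted p = 0.101) without it.

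**Figure D4:**
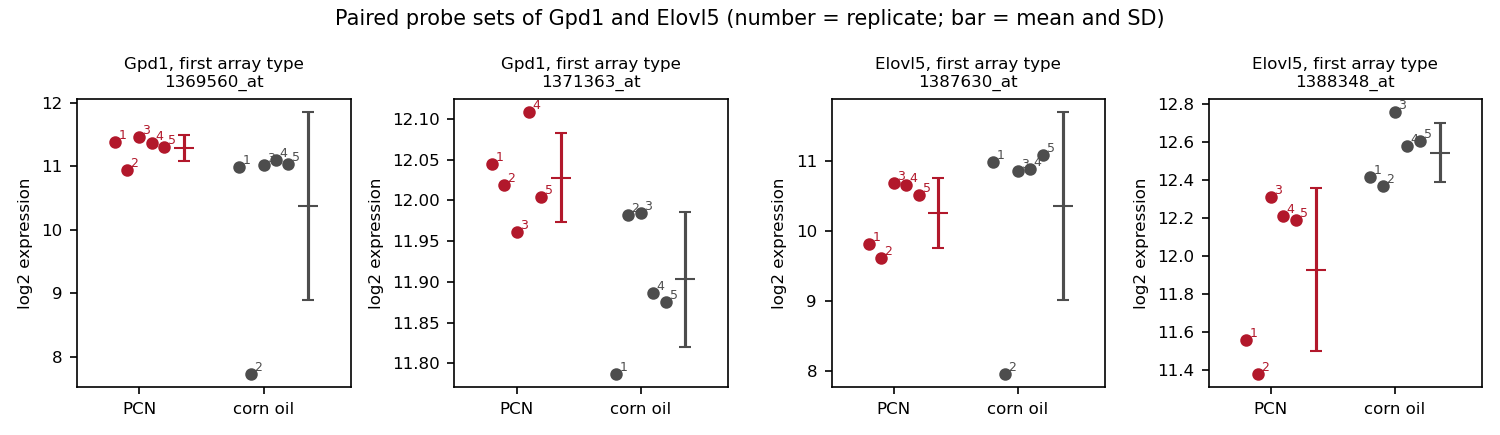
Log2 expression (y axis) on the first array type in each PCN (red) and corn oil (grey) animal for both probe sets of Gpd1 and both of Elovl5, with replicate numbers, means and SDs. Corn oil replicate 2 lies at 7.72 for Gpd1 1369560_at and at 7.95 for Elovl5 1387630_at, far below the other corn oil arrays, while it reads 11.98 for Gpd1 1371363_at and 12.37 for Elovl5 1388348_at, close to them.

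None of the genes of droplets, lipolysis and lipid traffic was called. Plin2, the main droplet coat protein of hepatocytes, had 12.14, 12.81, 13.36, 11.22 and 12.56 in PCN livers (1390383_at), against 11.58, 11.89, 13.00, 12.63 and 12.65 in corn oil livers, a log2 fold change of 0.07 (SE 0.37, adjusted p = 0.941). PCN replicate 4, the highest array for Fasn and Acly, was the lowest for Plin2 here and on its other probe set (1382680_at, log2 fold change 0.04, adjusted p = 0.948). The coat genes Plin3 (0.28, adjusted p = 0.366), Plin5 (-0.28, adjusted p = 0.266) and Cidec (0.38, adjusted p = 0.163) were not called either. Pnpla2, adipose triglyceride lipase, had 9.39, 10.14, 10.38, 9.48 and 9.81 in PCN livers (1371697_at), against 9.54, 9.74, 10.29, 10.23 and 10.12 in corn oil livers, a log2 fold change of -0.14 (adjusted p = 0.762). Cd36, the fatty acid translocase of the plasma membrane, had 9.65, 9.07, 10.29, 9.93 and 10.66 in PCN livers (1367689_a_at), against 10.79, 8.86, 10.09, 10.68 and 10.62 in corn oil livers, a log2 fold change of -0.29 with a 95% interval of -1.10 to 0.53 (adjusted p = 0.733). The groups overlapped for both genes. Mttp, which loads triglyceride onto apolipoprotein B for secretion, had 11.77, 11.88, 11.69, 11.57 and 11.41 in PCN livers (1395041_at, second array type), against 11.36, 11.59, 11.41 and 11.43 in corn oil livers, a log2 fold change of 0.22 (adjusted p = 0.227). This probe set lay at percentile 99.7 of brightness, and the brightest 1070 tested on that array type had a median log2 fold change of 0.20. The lipases Pnpla3, Lipe and Mgll had log2 fold changes between -0.23 and 0.25. Fabp1, the fatty acid binding protein of liver, had 0.04 (95% interval -0.04 to 0.13, adjusted p = 0.605).

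A list of related enzymes and regulators was also chosen with earlier results of these data known. These other pathway genes gave 5 called of 82 tested probe sets on the first array type, where 3.25% of all tested were called. Of the 5, 4 were higher and 1 was lower. On the second the other pathway genes gave 1 of 25, higher, where 5.40% of all tested were called. Their median log2 fold change was -0.03 on the first, with 36 of 82 positive, beside 5.5e-05 and 50% positive over all tested. On the second it was 0.15, with 19 of 25 positive, beside -0.03 and 41.1% over all tested. Bright probe sets of the second array type were shifted upward as a whole, with a median of 0.20 over the brightest 1070 tested. The part of that shift in the pathway values, or in those of bright members such as Elovl2, Cidec and Mttp, was not tested. Insig2, which holds the SREBP precursors in the endoplasmic reticulum, rose on both array types. Its log2 values averaged 12.90 ± 0.32 in PCN livers and 11.80 ± 0.42 in corn oil livers (SD, n = 5 each) on the first array type, a log2 fold change of 1.10 (SE 0.20, adjusted p = 0.0127) or 2.15-fold, and on the second it was 1.99-fold higher in PCN livers (adjusted p = 0.0284). Me1, malic enzyme, a source of NADPH for fatty acid synthesis, rose in 1 of its 2 probe sets, with means of 9.12 ± 0.61 in PCN livers and 7.88 ± 0.24 in corn oil livers (1370870_at, log2 fold change 1.24, adjusted p = 0.0212), while 1370067_at had 0.56 (adjusted p = 0.12). Cidea, a droplet-fusion protein (0.67, adjusted p = 0.0293), and Pgs1, phosphatidylglycerophosphate synthase (0.58, adjusted p = 0.0343), also rose. Aqp9, the glycerol channel of the hepatocyte, fell, with means of 11.16 ± 0.21 in PCN livers and 11.88 ± 0.16 in corn oil livers (SD, n = 5 each), a log2 fold change of -0.73 (SE 0.12, adjusted p = 0.00602). Aqp9 and Insig2 on the first array type kept their calls without any single array. Me1 lost its call without any 1 of 4 arrays (adjusted p up to 0.059), Cidea without any 1 of 5 (0.0746), Pgs1 without any 1 of 8 (0.0963), and Insig2 on the second array type without any 1 of 5 (0.0816). Of 11 other processing settings, Cidea lost its call in 5 (adjusted p up to 0.0999), Pgs1 in 2 (0.104), Insig2 in 1 for its first-type probe set (0.078) and in 2 for its second-type one (0.115), and Me1 in 1 (0.0927).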

How the data were processed

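Liver RNA was labelled and hybridised to Affymetrix arrays of 2 types, and the authors deposited 1 value per probe set and array. The deposited values were read as log2 from their range of 4.31 to 15.24 on the first array type and 3.10 to 14.05 on the second, and the log base is an inference. MAS5 is named in the submitters' processing notes; other steps are not given in the sources used here. Each table was analysed alone with limma 3.58.1 in R 4.3.3 (lmFit, eBayes with intensity trend, two-sided, Benjamini-Hochberg over all tested). Control probe sets and those with a mean under the 30th percentile (6.67 and 5.51) were left out. Gene symbols came from the platform annotation, updated by gene ID to RefSeq GRCr8. Named were members that passed the threshold or whose groups did not overlap, and 1 or more key genes of each role; of the other pathway genes, up to 4 called in each direction per table. The members and lists were chosen with earlier results of these data known. No array pair correlated above 0.996, so no array was counted as a duplicate. The steps were checked on simulated data with independent noise for each probe set, which does not test the calls under variation that probe sets share. Alternatives covered the filter, scaling between arrays, an offset, the variance model, a replicate block and leaving out each array. The number of arrays limits the precision.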

Additional observations from a re-analysis of the deposited data

Results flagged for a closer look

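In 8 of 72 groups of arrays, 1 array lay far from the others by Dixon's test, which chance does in about 1 in 20 independent groups. The groups here share the same arrays and are not independent, so setting 8 of 72 beside that rate is no test of an excess. A group was the PCN or the corn oil arrays of 1 probe set. Only members that were called, had groups that did not overlap or were key genes were checked. Elovl6 was not among them, and its probe set 1388108_at had PCN replicate 4 at 9.53, with the other PCN arrays at 7.33 to 7.63. PCN replicate 2 was low for Scd (7.10, others 8.93 to 9.49), for Pcyt1a 1369656_at (7.73, others 7.96 to 8.02) and for Agpat2 (9.37, others 9.85 to 9.99). PCN replicate 4 was high for Acaca 1387538_at (7.91, others 6.87 to 7.14), and PCN replicate 3 was low for Lpin2 1396398_at (5.87, others 6.07 to 6.13). Corn oil replicate 2 was low for Gpd1 1369560_at (7.72, others 10.99 to 11.10) and for Elovl5 1387630_at (7.95, others 10.86 to 11.08). Corn oil replicate 3 was high for Plin2 1382680_at (8.70, others 7.52 to 7.70).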

How the results depend on the processing

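Over 52 single-probe-set results and 1080 alternatives, 947 kept direction and side of the threshold, 71 lost the call, 29 gained it and 33 changed sign. Gpd1l1 on both array types and Pctp kept their calls in every alternative. Member calls on the first array type (3) became 5 with quantile normalization, 6 with a common trimmed mean, 6 centred on the 100 common probe sets, 4 with the stricter filter, 4 with a common median, 4 with robust variance, 2 with no filter and 2 with the unmoderated test, and were 2 to 3 without single arrays. On the second (2) they became 1 with quantile normalization, 1 unmoderated, 3 with a common median and 10 centred on the common probe sets, and 1 to 3 without single arrays. That centring moved the median of all tested probe sets on the second array type to -0.31, so its 8 lower member calls are relative to a shift of the whole table (6493 calls, 3.23% higher, against 577 and 69.7%). All calls on the first (361, 70.9% higher) became 104 unmoderated and 154 (without corn oil replicate 4) to 447 (without PCN replicate 2), with 57.9%, 59.3% and 45.9% higher under the quantile, trimmed-mean and centred scalings. On the second they became 875 with the trimmed mean (45.4% higher) and 46 unmoderated, 87.8% higher under the common median, and 84 (without corn oil replicate 4) to 1479 (without PCN replicate 5). The other pathway calls (5 and 1) became 1 and 0 unmoderated and 6 centred and 2 without the trend on the second, and 2 to 6 and 0 to 7 without single arrays. The call of Agpat2 was lost with no filter and unmoderated, and that of Lpin2 with quantile normalization and unmoderated. Of 11 settings other than leaving out arrays, uncalled probe sets became called in 6 for Acsl4, 4 for Lpin1 and 3 for Elovl5 1388348_at on the first array type, and in 2 for Gpam on the second. Signs turned when centred for Plin2 (-0.037 and -0.013), Mttp (-0.062) and Acsl5 (-0.041). Without single arrays the log2 fold changes ran from -0.11 to 0.26 and from -0.17 to 0.37 for Plin2, -0.44 to 0.33 for Acly, -0.024 to 0.41 for Acaca 1370893_at, -0.067 to 0.94 and -0.36 to 0.62 for Fasn, -0.70 to 0.085 for Elovl5 1387630_at, -0.34 to 0.23 for Srebf1 1371104_at and -0.067 to 0.048 for Acsl5 1386926_at. The causes were not tested.

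Replicate numbers gave no clear pairing of the samples, and so few pairs cannot exclude one. Deviations of same-numbered arrays correlated at -0.301 to 0.284 on the first array type (2 of 5 best with their own number). On the second they correlated at 0.02 to 0.201 (1 of 4). With the replicate number as a block, member calls were 5 and 2, other pathway calls 3 on the first array type, and all calls 239 and 203 (80.3% higher on the second), and the calls of Agpat2 and Lpin2 were lost.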
